A study of Mus musculus with 35 samples.

Results

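The results below concern how the response of the mouse heart to pressure overload differed between hearts in which Irs1 was targeted in cardiomyocytes and control hearts. The quantity examined was a difference of differences: the change from sham to transaortic constriction (TAC) in IRS1KO hearts minus the same change in WT hearts, both on the scale of log2(normalized count + 1). It drew on 23 of the 35 libraries of the series, namely all those labelled WT or IRS1KO: 6 WT sham, 5 WT TAC, 6 IRS1KO sham and 6 IRS1KO TAC. The other 12 libraries, from IRS2KO hearts, entered the fit to share its estimate of the spread and are given beside the results where they add a reference.

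All mice had the mixed strain C57Bl/6/FVB and were 6 weeks old at surgery, and the hearts were taken on day 3 after the operation, with polyadenylated RNA of the apex sequenced in stranded libraries. TAC places a suture around the aortic arch and so raises the pressure against which the left ventricle ejects. The WT mice carried the genotype IRS2-flox with no Cre label, the IRS1KO mice alphaMHC-Cre X IRS1-flox and the IRS2KO mice alphaMHC-Cre X IRS2-flox. The alphaMHC promoter directs Cre to cardiomyocytes, and by that design cells of other types in the heart would keep Irs1. No group had Cre without a floxed gene or IRS1-flox without Cre, and loss of Irs1, the Cre transgene, the floxed allele and other differences between the mouse lines cannot be told apart. Nothing in the labels states that the libraries stem from different animals, and the p-values measure only the spread between these libraries, which may be technical. Where all 5 WT TAC values are given they stand in the order of replicates 1, 2, 3, 5 and 6.

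Insulin receptor substrates 1 and 2, the products of Irs1 and Irs2, are docking proteins that become phosphorylated on tyrosine by the insulin and IGF1 receptors and recruit PI3 kinase, which leads to activation of AKT, restraint of FoxO transcription factors and activation of mTOR. In heart muscle this pathway supports glucose uptake, protein synthesis and postnatal growth. Pressure overload brings out a programme of natriuretic peptides, matrix deposition and inflammatory cell entry, with lower transcripts of fatty acid oxidation and oxidative phosphorylation. A positive difference of responses means that a transcript rose more, or fell less, in IRS1KO than in WT hearts, and it says nothing by itself of which of the 4 groups stood apart. In RNA from whole tissue, fewer cells of a type and less RNA per cell cannot be told apart.

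The libraries held 11707111 to 14609467 reads in genes. Irs1 lay between 172 and 309.8 normalized counts in WT sham and at 221, 203, 139, 135 and 206 in WT TAC, against 0 to 43.8 in IRS1KO sham and 0 to 80.3 in IRS1KO TAC, with no overlap between the genotypes under either operation. Replicate 1 of IRS1KO sham and replicate 1 of IRS1KO TAC had 0 Irs1 reads, where the next lowest values were 19.7 and 16.7. Why these libraries held none, when cells of other types would keep Irs1, was not tested. The highest of the IRS1KO TAC values, replicate 5, lay far from the next, at 26.7. That library also had the smallest rise of the cardiac stress and fetal gene list in its group (a median of 1.68 on the log2 scale above WT sham, against up to 2.26), and WT TAC replicate 2 had the smallest in its own (1.18, against up to 2.34). Reads from mitochondrial genes made up 29.2 to 30.6% of WT sham, 21.8 to 27.0% of WT TAC, 26.4 to 29.8% of IRS1KO sham and 16.5 to 23.6% of IRS1KO TAC libraries. The cardiomyocyte markers Myh6, Tnnt2 and Ryr2 were high in every library, and the T cell marker Cd3e and the adipocyte marker Adipoq did not exceed 3.56 and 2.20. Atrial Myl7 reached 106 in a WT sham library.

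Few genes passed the threshold for a different response to TAC. Of 13695 genes tested, 15 (0.110%) passed the threshold of an adjusted p of 0.05 in limma, a linear model fitted across all genes, with p-values adjusted by the method of Benjamini and Hochberg. Of these, 5 (0.0365%) had a higher response in IRS1KO and 10 (0.0730%) a lower one. The 5 were Nxpe4, Epb41l3, Mgp, Ssbp2 and Snap29, and the 10 were Clec7a, Ephb1, Nr1d1, Efhd1, Plekha7, Cd86, Csf1, Egfl7, Cd200 and Ets2. By comparison, TAC itself changed 7515 genes (54.9%) in WT and 8777 (64.1%) in IRS1KO hearts, and the genotypes differed in 637 genes (4.65%) in sham and in 643 (4.70%) after TAC. The median difference of responses over all genes tested was -0.009 on the log2 scale, with a median SE of 0.186, and 1216 genes had an unadjusted p under 0.05. The smallest difference called was 0.57 in size, so the low number of calls does not show that few genes differed.

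**Figure D1:**
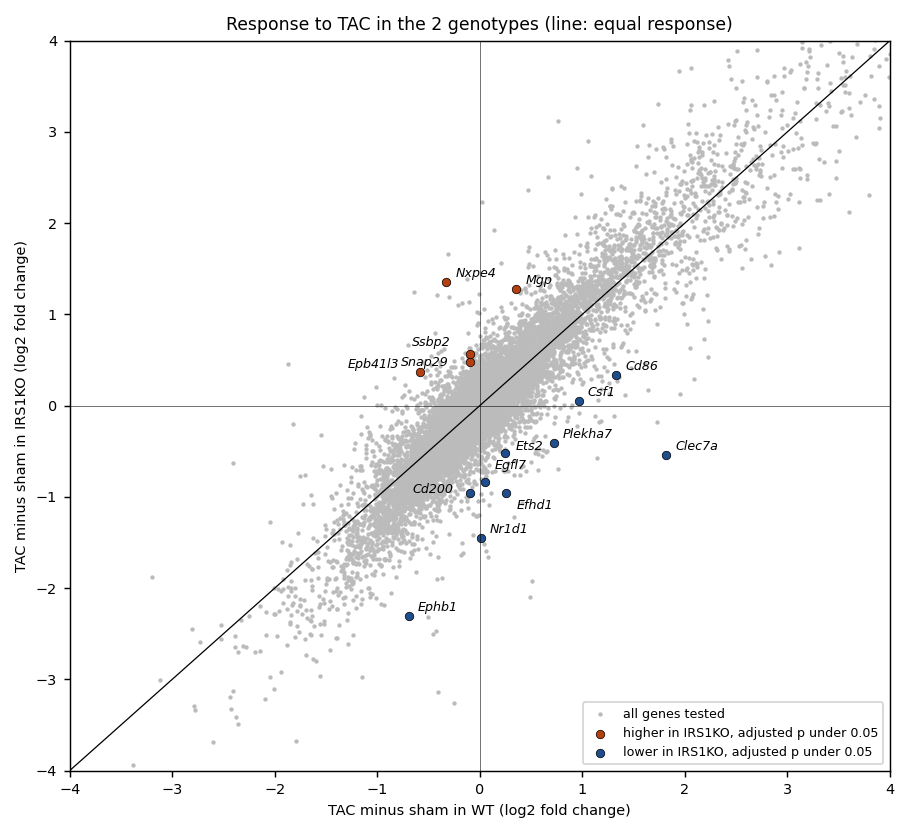
Change from sham to TAC in WT (horizontal) and in IRS1KO hearts (vertical), both as log2 fold changes of normalized counts + 1, for each of the 13695 genes tested, with the line of equal response. The 5 genes with a higher and the 10 with a lower response in IRS1KO are coloured, and 10 of the 15 lie in quadrants where the genotypes moved in opposite directions; 118 genes lie beyond the axes.

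The number of calls rested on single libraries. With each of the 23 libraries left out in turn, 2 to 53 genes passed, with a median of 10, and 11 of the 23 fits gave fewer than 10. The lowest count, 2, came without IRS1KO TAC replicate 4 or without WT sham replicate 2, and 3 passed without IRS1KO sham replicate 6 or WT TAC replicate 1. The highest, 53, came without IRS1KO TAC replicate 5, the library of that group with the most Irs1. Nxpe4 and Ssbp2 passed in all 23 fits and Cd200 in 21, followed by Plekha7 in 16 and Cd86 and Clec7a in 15 each, while the other 9 genes passed in 6 to 10 fits. With the same total set for every library, 10 of the 15 missed the threshold (Cd200, Cd86, Clec7a, Csf1, Efhd1, Egfl7, Ephb1, Plekha7, Snap29 and Ssbp2). Quantile normalization lost Csf1, Efhd1, Epb41l3, Ephb1 and Plekha7, and a fit of the 4 groups alone lost Csf1, Efhd1, Epb41l3, Ephb1, Mgp and Snap29. Without the filter on low values Efhd1, Epb41l3, Nr1d1 and Snap29 missed it, and with edgeR on the recovered reads Mgp did. The log2 differences kept their sign for all 15 in each of these fits. The split between directions also moved with the processing: with the same total set for every library 4 genes were higher and 3 lower, and with weights estimated for each library 117 were higher and 75 lower.

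**Figure D2:**
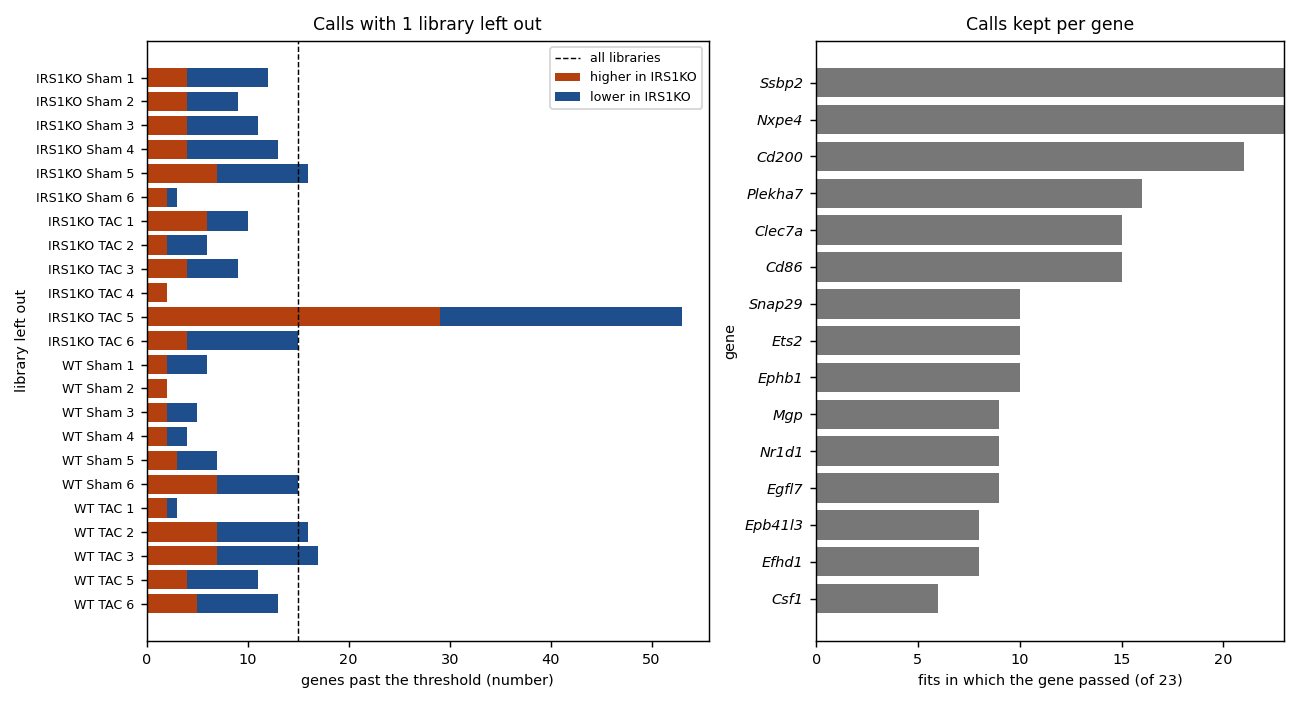
Left, the number of genes past the threshold when the named library is left out, split by direction, with the count over all libraries as a dashed line at 15; right, the number of the 23 fits in which each of the 15 genes passed. The bar without IRS1KO TAC 5 reaches 53 and those without IRS1KO TAC 4 or WT sham 2 stop at 2, and only the bars of Nxpe4 and Ssbp2 reach 23.

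The genes that passed in every fit with a library left out were Nxpe4 and Ssbp2. Both were below WT in IRS1KO sham hearts and rose with TAC in IRS1KO hearts. The change with TAC in WT did not pass the threshold for either gene, although the WT groups did not overlap for Nxpe4. Nxpe4 belongs to the neurexophilin and PC-esterase domain family (chr9:48162023-48400025, plus strand, GRCm38). Its normalized count was 214 to 255 (median 235) in WT sham and 186, 193, 196, 158 and 209.8 in WT TAC, and 3.23 to 11.4 (median 7.19) in IRS1KO sham and 13.6 to 27.1 (median 19.6) in IRS1KO TAC. No IRS1KO library reached the lowest WT library under either operation, and every IRS1KO TAC library lay above every IRS1KO sham library. In WT the direction was the reverse, with every TAC library below every sham library. The mean in IRS1KO was 3.18% of WT in sham and 10.6% after TAC. It rose 2.66-fold with TAC in IRS1KO (log2 change 1.35, adjusted p = 4e-08), against a log2 change of -0.32 (adjusted p = 0.112) in WT, which gave a difference of responses of 1.68 ± 0.24 (SE; adjusted p = 0.000697) and a 95% interval of 1.19 to 2.16. The p-value for WT rests on a spread that the fit shares with the low IRS1KO libraries. In counts, the change was a gain of 12.4 in IRS1KO from a level near the bottom of the measured range, and the fall in WT was larger than that. The IRS2KO means were 221 ± 11.5 in sham and 195 ± 31.3 after TAC (SD, n = 6 each).

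Ssbp2 encodes a single-stranded DNA-binding protein that acts in transcriptional complexes with LDB1 (chr13:91460283-91703429, plus strand, GRCm38). Its count was 307 to 374 (median 350.0) in WT sham, 342, 306, 297, 346 and 327 in WT TAC, 252 to 296 (median 271) in IRS1KO sham and 342 to 444 (median 413) in IRS1KO TAC. The IRS1KO sham libraries lay below all WT sham libraries, and the IRS1KO TAC libraries lay mostly, but not all, above those of WT TAC. Between the genotypes the direction turned, from 78.4% of WT in sham to 125% after TAC, with log2 differences of -0.35 (adjusted p = 0.00418) and 0.32 (adjusted p = 0.0157). Its difference of responses was 0.67 ± 0.11 (SE; adjusted p = 0.00720), a ratio of 1.59 between the 2 fold changes. With the same total set for every library it missed the threshold (adjusted p = 0.0620) at a log2 difference of the same sign.

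The promoters of these 2 genes are shown because their calls held in every fit with a library left out. They are the 250 bases before the RefSeq start site (GRCm38.p6, plus strand), chr9:48361791-48362040 for Nxpe4 and chr13:91460847-91461096 for Ssbp2. Both stretches lie inside the GENCODE spans given above, that of Nxpe4 far from the start of its span. Which start site these hearts used was not tested. Capitals mark the E-box CACGTG, the motif bound by the clock factors CLOCK and BMAL1 among others, and AGGTCA, the core element bound by many nuclear receptors, both searched on both strands because a clock receptor, Nr1d1, was among the 15 genes.
Nxpe4: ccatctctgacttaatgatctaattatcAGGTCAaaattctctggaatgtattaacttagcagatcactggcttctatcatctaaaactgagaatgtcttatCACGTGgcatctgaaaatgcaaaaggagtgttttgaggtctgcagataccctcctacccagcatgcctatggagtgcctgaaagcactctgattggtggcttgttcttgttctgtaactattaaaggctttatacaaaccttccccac
Ssbp2: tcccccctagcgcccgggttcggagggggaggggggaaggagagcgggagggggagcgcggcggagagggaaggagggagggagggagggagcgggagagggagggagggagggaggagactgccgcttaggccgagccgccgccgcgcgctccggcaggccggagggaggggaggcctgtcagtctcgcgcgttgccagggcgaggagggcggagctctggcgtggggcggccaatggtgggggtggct
In the 300-base windows from which these stretches come, which run 50 bases past the start site, Nxpe4 held 1 match of each motif and Ssbp2 neither. The Nxpe4 window had 42.3% G and C with 1 CG dinucleotide, and that of Ssbp2 75.3% with 28. Of 32851 RefSeq promoter windows of this length, 7.15% held the E-box and 16.3% AGGTCA. Of the 15 genes, 12 had an entry, with 17 windows between them, of which 1 held the E-box and 3 AGGTCA (Nxpe4, Egfl7 and Epb41l3). The window of Nr1d1 held neither.

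Another 4 of the 15 genes differed between the genotypes in sham hearts by more than after TAC and moved toward or past WT with TAC. Csf1, described below, also differed more in sham, but its own level in IRS1KO changed little with TAC. Plekha7, a component of adherens junctions, and Ephb1, an ephrin receptor tyrosine kinase, were higher in IRS1KO sham hearts, whereas Epb41l3, a membrane-cytoskeleton linker of the band 4.1 family, and Mgp, a matrix protein that inhibits calcification, were lower. Plekha7 counts were 15.3 to 28.5 (median 23.5) in WT sham and 34.1, 29.8, 39.7, 34.7 and 48.3 in WT TAC, against 384 to 521 (median 475) in IRS1KO sham and 236 to 442 (median 352) in IRS1KO TAC. The genotypes did not overlap, with a 20.5-fold higher mean in IRS1KO sham and a 9.34-fold higher mean in IRS1KO TAC. It rose in WT (log2 change 0.72, adjusted p = 0.000415) and fell in IRS1KO (-0.41, adjusted p = 0.0198), for a difference of responses of -1.13 ± 0.22 (SE; adjusted p = 0.0301). In IRS2KO hearts it had means of 27.1 ± 4.95 in sham and 50.7 ± 10.8 after TAC (SD, n = 6 each). In GRCm38, Plekha7 lies at chr7:116123485-116308376, minus strand, Ephb1 at chr9:101922128-102354693, minus strand, Epb41l3 at chr17:69075683-69289989, plus strand and Mgp at chr6:136872435-136875823, minus strand.

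Ephb1 counts were 35.8 to 44.6 (median 37.7) in WT sham and 24.2, 36.5, 24.3, 16.3 and 21.9 in WT TAC, and 132 to 324 (median 179) in IRS1KO sham and 20.4 to 64.8 (median 39.1) in IRS1KO TAC. Every IRS1KO sham library exceeded every other library of the 4 groups, and after TAC the genotypes overlapped. The mean in IRS1KO fell 4.96-fold with TAC and that in WT 1.60-fold, a difference of responses of -1.62 ± 0.33 (SE; adjusted p = 0.0301). Epb41l3 was 103 to 141 (median 128) in WT sham, 56.6, 109, 89.2, 81.7 and 79.9 in WT TAC, 44.9 to 61.0 (median 57.0) in IRS1KO sham and 60.0 to 85.2 (median 70.6) in IRS1KO TAC. Its WT level fell (log2 change -0.58, adjusted p = 0.00115) and its IRS1KO level rose (0.37, adjusted p = 0.0178), so that the genotypes, apart in sham, overlapped after TAC. Mgp was 1163 to 1722 (median 1327) in WT sham, 1711, 2122, 1138, 2032 and 1904 in WT TAC, 716 to 1242 (median 898) in IRS1KO sham and 1889 to 2388 (median 2254) in IRS1KO TAC. It rose 2.39-fold in IRS1KO and 1.30-fold in WT, and sham and TAC libraries overlapped in WT but not in IRS1KO. The differences of responses were 0.95 ± 0.20 (SE; adjusted p = 0.0301) for Epb41l3 and 0.92 ± 0.19 (SE; adjusted p = 0.0301) for Mgp, and each of these 3 genes passed in 8 to 10 of the 23 fits with a library left out.

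Cd86, Clec7a, Csf1 and Cd200, each with a lower response in IRS1KO, are set side by side for their known roles in or toward myeloid cells, a grouping made after their values were seen and not tested as a group. In GRCm38, Cd86 lies at chr16:36603869-36666081, minus strand, Clec7a at chr6:129461591-129472779, minus strand, Csf1 at chr3:107741048-107760469, minus strand and Cd200 at chr16:45382135-45409053, minus strand. Cd86, a co-stimulatory ligand of antigen-presenting cells, was 26.9 to 37.2 (median 33.0) in WT sham and 95.2, 78.7, 83.8, 100.1 and 64.1 in WT TAC, and 36.8 to 51.7 (median 42.6) in IRS1KO sham and 47.6 to 59.1 (median 55.2) in IRS1KO TAC. All 5 WT TAC libraries exceeded all IRS1KO TAC libraries. The mean rose 2.58-fold in WT and 1.25-fold in IRS1KO, a difference of responses of -1.0 ± 0.19 (SE; adjusted p = 0.0301). Clec7a, the beta-glucan receptor dectin-1 and listed as a polymorphic pseudogene in the GENCODE annotation, was 17.6 to 32.9 (median 25.7) in WT sham, 171, 41.3, 219, 66.4 and 55.3 in WT TAC, 34.7 to 48.6 (median 39.8) in IRS1KO sham and 18.1 to 37.0 (median 28.7) in IRS1KO TAC. Its WT TAC libraries spread widely, and the lowest of them was above the highest IRS1KO TAC library.

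Clec7a rose in WT (log2 change 1.82, adjusted p = 5.42e-05), while its change in IRS1KO was -0.54 (adjusted p = 0.142), and its difference of responses of -2.36 ± 0.47 (SE; adjusted p = 0.0301) was the largest in size among the 15. Csf1, the growth factor that maintains macrophages, was 389 to 599 (median 458) in WT sham and 1119.8, 585, 1193, 1009 and 786 in WT TAC, against 596 to 869.8 (median 721) in IRS1KO sham and 586 to 896 (median 787) in IRS1KO TAC. Its log2 change was 0.97 (adjusted p = 1.4e-06) in WT and 0.05 (adjusted p = 0.761) in IRS1KO, where the sham level was 1.54 times that of WT. The difference of responses was -0.92 ± 0.19 (SE; adjusted p = 0.0345), and it passed in 6 of the 23 fits with a library left out, the fewest among the 15 genes.

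Cd200, a surface glycoprotein that engages an inhibitory receptor on myeloid cells, was 531 to 752 (median 622) in WT sham and 541, 595, 702, 516 and 639 in WT TAC, and 724 to 898 (median 829) in IRS1KO sham and 352 to 619.5 (median 406) in IRS1KO TAC. All IRS1KO TAC libraries lay below all IRS1KO sham libraries, and the WT groups overlapped. Replicate 5 held the highest IRS1KO TAC value, and without it the group mean was 389 in place of 427. The level fell 1.91-fold in IRS1KO (log2 change -0.95, adjusted p = 1.55e-08) and its change in WT was -0.09 (adjusted p = 0.514), a difference of responses of -0.86 ± 0.16 (SE; adjusted p = 0.0285). With the same total set for every library, Cd200, Cd86, Clec7a and Csf1 each missed the threshold, with adjusted p-values of 0.0636, 0.0620, 0.0524 and 0.208 at log2 differences of the same sign.

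Macrophage and monocyte markers as a list rose with TAC in both genotypes, with 23 of 24 called higher in WT (28.3% of all genes tested) and 21 in IRS1KO (32.4%). Their summed normalized count was 3004 to 4034 in WT sham, 7638 to 19674 in WT TAC, 3178 to 4027 in IRS1KO sham and 7734 to 17196 in IRS1KO TAC, so both pairs of groups overlapped between genotypes. None of the 24 passed in the difference of responses, which was positive for 10 and negative for 14 of them. The median of -0.19 turned to 0.10 with library weights and to 0.12 without WT TAC replicate 3. Timd4, a marker of resident macrophages, had the smallest p of them, at -1.52 ± 0.49 (SE; adjusted p = 0.329), with means of 11.8 ± 2.40 in WT sham, 9.29 ± 4.06 in WT TAC, 18.0 ± 3.22 in IRS1KO sham and 4.57 ± 2.49 in IRS1KO TAC (SD, n = 6, and 5 for WT TAC). The part of myeloid cell number in the values of Cd86, Clec7a and Csf1 was not tested.

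The last 5 genes of the 15 had diverse roles. In GRCm38, Egfl7 lies at chr2:26580014-26593120, plus strand, Nr1d1 at chr11:98767932-98775333, minus strand, Ets2 at chr16:95702075-95721051, plus strand, Snap29 at chr16:17405986-17430827, plus strand and Efhd1 at chr1:87264363-87310839, plus strand. Egfl7, a protein secreted by endothelial cells, was 556 to 705 (median 611) in WT sham and 740.0, 762, 638, 501 and 630.4 in WT TAC, and 686 to 1099.8 (median 809.6) in IRS1KO sham and 423 to 562 (median 443) in IRS1KO TAC. It fell 1.80-fold in IRS1KO with no overlap between sham and TAC, while its log2 change in WT was 0.06 (adjusted p = 0.738), and the difference of responses was -0.89 ± 0.18 (SE; adjusted p = 0.0301). It was the 1 called gene among 15 endothelial markers, of which 14 had a negative difference, with a median of -0.20. The summed count of that list was 32663 to 38665 in WT sham, 19677 to 33154 in WT TAC, 30371 to 36346 in IRS1KO sham and 16424 to 24459 in IRS1KO TAC. With TAC, 8 of the 15 markers fell in WT (26.6% of all genes tested) and 13 in IRS1KO (31.7%), and the part of endothelial content in the value of Egfl7 was not tested.

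Nr1d1 encodes REV-ERB alpha, a nuclear receptor that represses transcription in the circadian clock. Its count was 589.7 to 936 (median 629.9) in WT sham, 592, 1083, 491, 518 and 835 in WT TAC, 776 to 1344 (median 1009.8) in IRS1KO sham and 239.9 to 456 (median 394) in IRS1KO TAC. All IRS1KO TAC libraries lay below all others of the 4 groups. It fell 2.73-fold in IRS1KO and its log2 change in WT was 0.01 (adjusted p = 0.970), for a difference of responses of -1.46 ± 0.30 (SE; adjusted p = 0.0301). IRS2KO hearts also had less Nr1d1 after TAC, with a log2 change of -1.10 (adjusted p = 3.37e-05). Among 18 circadian genes it was the only one called, and 11 had a negative and 7 a positive difference, or 8 a negative one without WT TAC replicate 2. Dbp, a clock output factor and the only other with an unadjusted p under 0.05, was named after its values were seen and had a difference of -1.04 ± 0.43 (SE; adjusted p = 0.489). The hours at which the hearts were taken are not given in the sources used here, and their part in these values was not tested.

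Ets2, an ETS family transcription factor, was 993 to 1245 (median 1126) in WT sham, 1614, 1341, 1113, 1374 and 1259.9 in WT TAC, 1162 to 1581 (median 1339) in IRS1KO sham and 774 to 1177 (median 960.1) in IRS1KO TAC. The groups overlapped in all 4 comparisons of genotype or operation, and the fall in IRS1KO was 1.43-fold. Its difference of responses was -0.77 ± 0.16 (SE; adjusted p = 0.0301), and it shared with Nxpe4 that it passed under each of 11 alternatives other than leaving out a library. Snap29, a SNARE protein of autophagosome fusion with lysosomes, was 285 to 368 (median 316) in WT sham, 304, 240.0, 319.9, 322 and 326 in WT TAC, 294 to 341 (median 312) in IRS1KO sham and 389 to 486 (median 429.9) in IRS1KO TAC. The IRS1KO TAC libraries were above all others of the 4 groups, and the difference of responses was 0.57 ± 0.12 (SE; adjusted p = 0.0301), the smallest in size among the 15. Efhd1, a calcium-binding protein of mitochondria, was low throughout and fell outside the rule for named genes, which asks for a mean of at least 50 in the highest group. It was 17.9 to 31.0 (median 23.6) in WT sham, 26.9, 35.5, 25.2, 18.4 and 40.4 in WT TAC, 20.4 to 26.2 (median 23.7) in IRS1KO sham and 7.74 to 14.9 (median 12.3) in IRS1KO TAC, with a difference of responses of -1.20 ± 0.25 (SE; adjusted p = 0.0301).

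**Figure D3:**
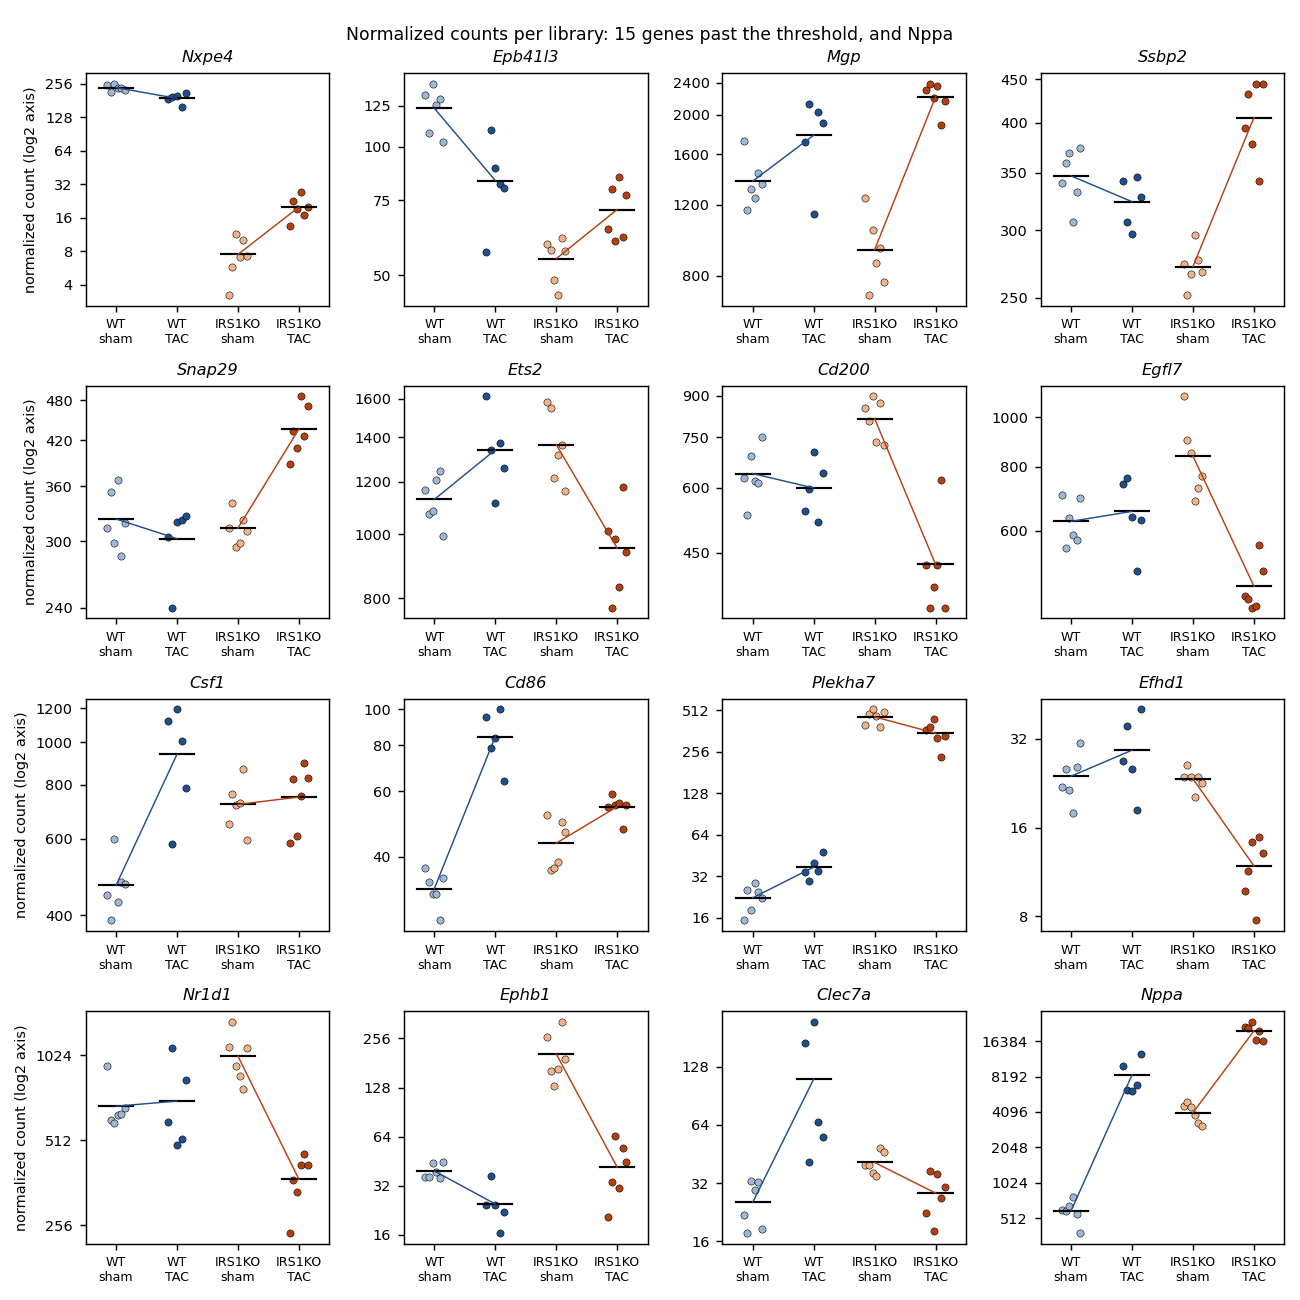
Normalized counts (log2 axes, each panel with its own range) in each library of the 4 groups, with group means as bars and lines joining sham and TAC of 1 genotype, for the 15 genes past the threshold, from the highest difference of responses to the lowest, and for Nppa, which did not pass. In Nxpe4, Plekha7 and Nppa the genotypes do not overlap under either operation, in Cd86 and Clec7a the WT TAC libraries stand above those of IRS1KO TAC, and in Csf1 the IRS1KO line is nearly flat.

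Across the 15 genes, the responses of the genotypes had opposite signs in 10 and the same sign in 5 (Cd200, Cd86, Csf1, Ephb1 and Mgp). TAC changed 13 of the 15 in IRS1KO, 6 of them higher (32.4% of all genes tested) and 7 lower (31.7%), the exceptions being Clec7a and Csf1. In WT it changed 7, with Cd86, Clec7a, Csf1, Mgp and Plekha7 higher (28.3% of all genes tested) and Epb41l3 and Ephb1 lower (26.6%). In IRS2KO, where 62.4% of all genes passed, it changed 8 of the 15. Between the genotypes, 3 of the 15 were higher in IRS1KO in sham (2.00% of all genes tested) and 4 lower (2.65%), and after TAC 3 were higher (2.02%) and 8 lower (2.68%). The difference between genotypes was larger in sham for 7 (Csf1, Epb41l3, Ephb1, Mgp, Nxpe4, Plekha7 and Ssbp2) and larger after TAC for 8. These splits describe genes chosen by the test of the difference itself and are no further evidence for it. Of the 15, 4 (Cd200, Cd86, Ets2 and Snap29) lie on chromosome 16, which holds 413 (3.02%) of the genes tested, and the 15 lie on 10 chromosomes. Chromosome 16 was singled out after the calls were seen, and its share of them was not tested. The response of IRS2KO was nearer to that of WT for 13 of the 15 and nearer to IRS1KO for Cd86 and Nr1d1. That count likewise describes genes chosen for a difference between IRS1KO and WT. No share over all genes tested is given beside it, and it is no evidence that IRS1KO stands apart. Tested directly against IRS2KO, a contrast that uses the same IRS1KO libraries and in which 56 genes (0.409%) passed, the IRS1KO response was higher for Nxpe4, Mgp and Epb41l3 (0.263% of all genes tested) and lower for Cd200, Efhd1, Ephb1 and Plekha7 (0.146%), while the other 8 did not pass.

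Nppa, which encodes atrial natriuretic peptide and marks ventricular stress, missed the threshold by a margin that depended on the processing, and its direction depended on the scale. Its count was 384 to 779 (median 593) in WT sham and 10102, 6235, 6184, 6913 and 12825 in WT TAC, and 3125 to 4936 (median 4166) in IRS1KO sham and 16311 to 23883 (median 20703) in IRS1KO TAC. No 2 of the 4 groups overlapped. In fold, the rise was larger in WT, at 14.2 against 4.94 in IRS1KO with a difference of responses of -1.49 ± 0.33 (SE; adjusted p = 0.0547). In counts, it was larger in IRS1KO, with means 15926 above sham, against 7858 in WT. It passed in 5 of 11 alternatives, with adjusted p-values from 0.00255 to 0.141 over the 11, and in 3 of the 23 fits with a library left out, those without IRS1KO TAC replicate 5 or WT TAC replicate 2 or 3. Its sham level in IRS1KO was 6.81 times that of WT. Nppb, the gene for B-type natriuretic peptide, had a difference of -0.76 ± 0.42 (SE; adjusted p = 0.611), and Ankrd1, a stress-responsive cardiac ankyrin repeat protein, of -0.26 ± 0.31 (SE; adjusted p = 0.823). Over the 16 cardiac stress and fetal genes the median was 0.02, or -0.07 with library weights, with 9 positive, 7 negative and none called, although TAC raised 15 of them in WT (28.3% of all genes tested) and 13 in IRS1KO (32.4%). With a library left out that median ran from -0.12 to 0.11.

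Genes of the insulin and IGF pathway itself showed no call. Of 42 members tested, 28 had a positive and 14 a negative difference, with a median of 0.07, or 0.04 without IRS1KO TAC replicate 5. Those with an unadjusted p under 0.05 were Tsc1, which encodes a subunit of the complex that restrains mTOR, at 0.27 ± 0.10 (SE; adjusted p = 0.458), Gab1, another docking protein of receptor tyrosine kinases, at 0.28 ± 0.12 (SE; adjusted p = 0.496), and Inppl1, the lipid phosphatase SHIP2, at 0.31 ± 0.13 (SE; adjusted p = 0.501). Gab1 and Inppl1 were named after their values were seen. Tsc1 had means of 567 ± 36.6 in WT sham, 434 ± 39.6 in WT TAC, 531 ± 58.6 in IRS1KO sham and 486 ± 27.6 in IRS1KO TAC (SD, n = 6, and 5 for WT TAC). Irs1 had a difference of 0.25 ± 0.99 (SE; adjusted p = 0.961) at its low level in IRS1KO, and Irs2 of -0.27 ± 0.49 (SE; adjusted p = 0.892). The 95% interval for Irs2 ran from -1.28 to 0.74, and its libraries spread widely, from 93.0 to 564 in WT sham and from 185 to 959 in IRS1KO TAC. Slc2a4, the insulin-responsive glucose transporter GLUT4, fell in both genotypes and had a difference of -0.44 ± 0.31 (SE; adjusted p = 0.677).

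Lists of mitochondrial metabolism leaned in 1 direction without a single called gene. All 45 nuclear genes of oxidative phosphorylation had a negative difference, with a median of -0.33 against -0.009 over all genes tested, of which 6620 were positive and 7075 negative. The same held for all 31 genes of fatty acid uptake and oxidation, with a median of -0.35, for 20 of 22 of the tricarboxylic acid cycle, with -0.25, and for 12 of 13 mRNAs of the mitochondrial genome, with -0.27. Both genotypes had less of these transcripts after TAC: the median log2 change of the oxidative phosphorylation genes was -0.60 in WT and -0.93 in IRS1KO, and that of the fatty acid genes -0.95 and -1.25. In single libraries, the median of the oxidative phosphorylation list relative to the WT sham mean was -0.12 to 0.12 (median -0.03) in WT sham, -0.55, -0.26, -1.06, -0.45 and -0.62 in WT TAC, -0.21 to 0.22 (median -0.10) in IRS1KO sham and -1.29 to -0.49 (median -1.07) in IRS1KO TAC. The TAC groups overlapped, with WT TAC replicate 3 near the IRS1KO median and IRS1KO TAC replicate 5, at -0.49, among the WT values.

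Members of 1 pathway share their libraries and move together from heart to heart, and their number is not a number of independent observations. The smallest p among the oxidative phosphorylation genes belonged to Ndufa2, a subunit of complex I, at -0.42 ± 0.20 (SE; adjusted p = 0.560), and among the fatty acid genes to Etfb, a subunit of the electron transfer flavoprotein, at -0.50 ± 0.27 (SE; adjusted p = 0.606). IRS2KO hearts had median changes of -0.88 and -1.26 for the 2 lists. All 45 oxidative phosphorylation genes stayed negative under 11 alternatives and in all 23 fits with a library left out, with medians from -0.45 to -0.25, and 28 to 31 of the fatty acid genes did so with a library left out. Without WT TAC replicate 2 the median was -0.22 for the fatty acid and -0.16 for the tricarboxylic acid cycle genes. The mitochondrial mRNAs did not hold to this, with 7 of 13 negative after quantile normalization. Pdk4, the kinase that inhibits pyruvate dehydrogenase, had a difference of -0.71 ± 0.54 (SE; adjusted p = 0.70), and the uncoupling protein gene Ucp3 of -1.33 ± 0.73 (SE; adjusted p = 0.611). Pfkl, the liver isoform of phosphofructokinase, was the member of the 24 glycolysis and glucose transport genes with the smallest p, at 0.47 ± 0.11 (SE; adjusted p = 0.0696), and it passed in 3 of 11 alternatives and in 2 of the 23 fits with a library left out, those without IRS1KO TAC replicate 5 or WT TAC replicate 2.

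Matrix and fibroblast genes leaned the other way. Of 30 extracellular matrix genes 22 had a positive difference, with a median of 0.29, and of 12 activated fibroblast markers 11 did, with 0.40, and none was called in either list. Without WT TAC replicate 2 the medians were 0.18 and 0.24, and without IRS1KO TAC replicate 2 that of the matrix genes was 0.19. TAC raised 29 of the 30 matrix genes in each genotype, against 28.3% of all genes tested in WT and 32.4% in IRS1KO. Postn, which encodes periostin of activated fibroblasts, rose 31.0-fold in WT and 40.2-fold in IRS1KO, a difference of 0.38 ± 0.35 (SE; adjusted p = 0.748). Col11a1, a fibrillar collagen chain, had means of 1.07 in WT sham and 1.52 in IRS1KO sham hearts, near the bottom of the range, where the fold depends on the added count of 1, and of 35.7 ± 27.5 in WT TAC and 355 ± 205 in IRS1KO TAC (SD, n = 5 and 6), with a difference of 3.04 ± 0.87 (SE; adjusted p = 0.221). The exception among the fibroblast markers was Acta2, smooth muscle actin, at -0.64 ± 0.23 (SE; adjusted p = 0.377): its mean was 1990.5 ± 366 in WT sham and 2940.3 ± 789 in WT TAC, but 5603 ± 887 in IRS1KO sham and 5274 ± 937 in IRS1KO TAC (SD).

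Among lists with at least 5 members tested, the most negative median belonged to 20 interferon-stimulated genes, at -0.41, with 19 negative and none called. Its size depended on 1 WT library. In single libraries the median of the list relative to the WT sham mean was -0.19 to 0.11 (median 0.06) in WT sham, -0.09, 0.07, 1.11, -0.30 and 0.70 in WT TAC, 0.12 to 0.59 (median 0.36) in IRS1KO sham and -0.09 to 0.78 (median 0.51) in IRS1KO TAC. WT TAC replicate 3 stood highest, and without it the median difference was -0.15 with 14 of 20 negative, while library weights gave a median of -0.22. By the median library of each group this log2 value was not lower after TAC than in sham in either genotype. It went from 0.06 to 0.07 in WT and from 0.36 to 0.51 in IRS1KO, a larger rise in IRS1KO, so that measure differs in sign from the median over genes. Over genes, the median difference of IRS1KO from WT was 0.38 in sham and 0.04 after TAC. The summed count of the list in the median library was lower after TAC in both genotypes, from 2956 to 2843 in WT and from 3639 to 3574 in IRS1KO. The WT TAC libraries ran from 2296 to 6139, below and above the WT sham range of 2595 to 3104. Irf1, an interferon-induced transcription factor, had the smallest p, at -0.79 ± 0.21 (SE; adjusted p = 0.160), with means of 225 ± 16.9 in WT sham, 219 ± 44.6 in WT TAC, 331 ± 76.9 in IRS1KO sham and 181 ± 19.1 in IRS1KO TAC (SD, n = 6, and 5 for WT TAC). Bst2, which encodes the membrane protein tetherin and was named after its values were seen, also had an unadjusted p under 0.05, with a difference of -0.59 ± 0.29 (SE; adjusted p = 0.560).

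Contractile and electrical genes showed no call either. Of 20 calcium handling and ion channel genes 15 had a negative difference, with a median of -0.26, and of 18 sarcomere and Z-disc genes 15 did, with -0.13. Kcnip2, the auxiliary subunit of the transient outward potassium channel, fell 2.82-fold in WT and 5.56-fold in IRS1KO, a difference of -1.20 ± 0.57 (SE; adjusted p = 0.556). Slc8a1, the sodium-calcium exchanger, rose 1.37-fold and 2.11-fold, a difference of 0.65 ± 0.21 (SE; adjusted p = 0.353). Tcap, which encodes the Z-disc protein telethonin, fell 2.09-fold in WT and 4.09-fold in IRS1KO, a difference of -0.97 ± 0.47 (SE; adjusted p = 0.560). The sarcomere median was -0.06 without IRS1KO TAC replicate 4 and -0.07 without WT TAC replicate 2, and -0.19, -0.22 and -0.28 without IRS1KO TAC replicate 3, IRS1KO TAC replicate 5 and WT TAC replicate 3. The cell cycle list had 17 of 28 positive with a median of 0.21, which turned to -0.09 with 16 negative without WT TAC replicate 2 and was 0.39 without WT TAC replicate 3 and 0.13 without IRS1KO TAC replicate 6 or WT sham replicate 6. With library weights the cell cycle median was 0.105, and on the recovered reads it was 0.07 with edgeR and 0.087 with DESeq2.

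**Figure D4:**
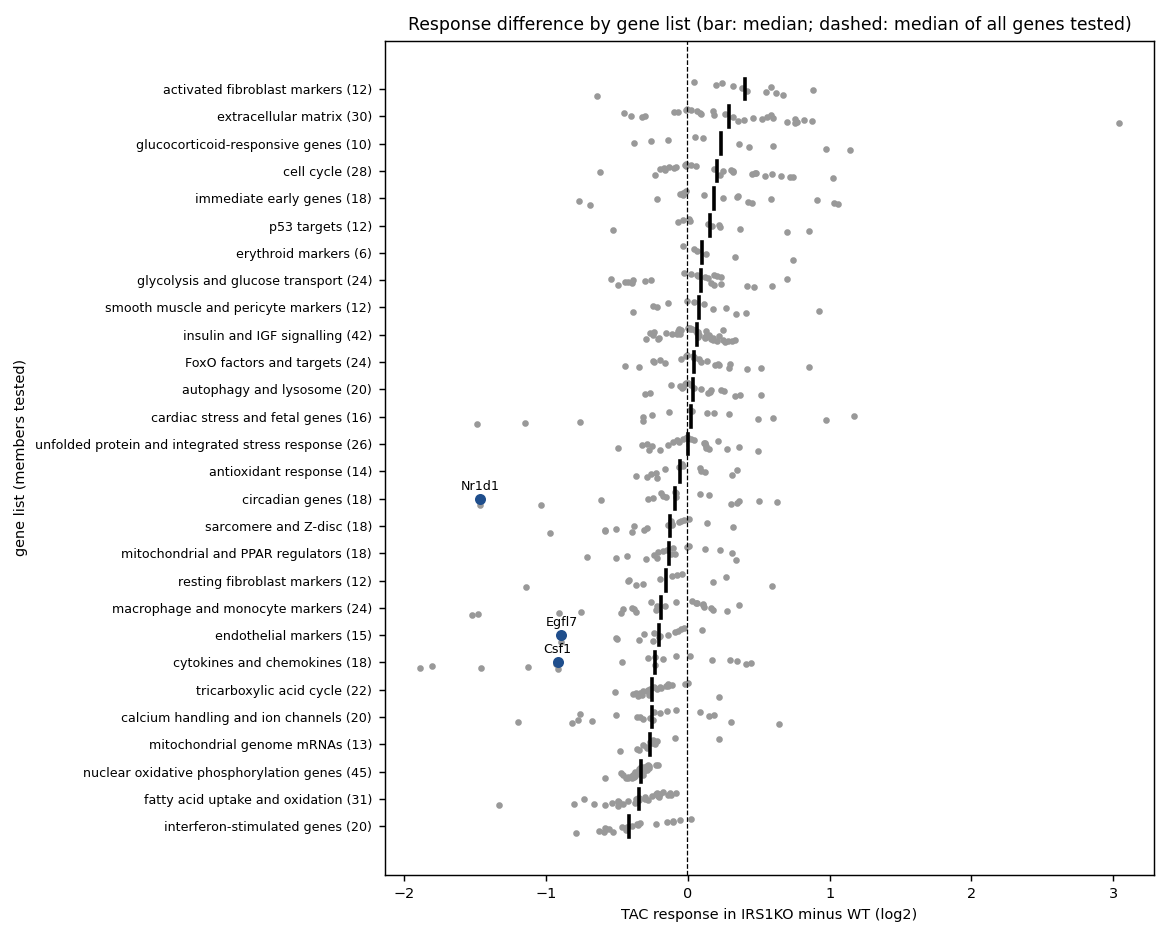
Difference of responses (log2, IRS1KO minus WT) of each tested member of 28 gene lists with at least 5 members tested, ordered by median; grey points are genes, black bars list medians, the dashed line the median of all genes tested, and blue points the called members Nr1d1, Egfl7 and Csf1. The oxidative phosphorylation and fatty acid points lie wholly to the left of 0, and the medians run from -0.41 for interferon-stimulated genes to 0.40 for activated fibroblast markers.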

How the data were processed

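RNA of the heart apex from sham and TAC mice was measured by stranded mRNA sequencing. The deposited table gives, for 27012 genes and 35 libraries, a signal: gene counts that the authors had divided by a size factor for each library. Per the submitters' processing notes, HISAT2 2.0.6, HTSeq 0.7.1, DESeq2 with no version and the build GRCm38 were used, with no role or order given. In every library 100% of the values were within 0.001 of a whole number of reads after rescaling, and these recovered reads gave the depths, 11707111 to 14609467 per library. Gene symbols and coordinates came from GENCODE vM21, in which 26904 identifiers (99.6%) were found, and promoters from RefSeq.

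Genes with a mean of at least 10 over all libraries (13695) were fitted on log2(value + 1) in R 4.3.3 with limma 3.58.1 (trend and robust options), with 6 groups and 35 libraries, which all share 1 estimate of the spread. Fold changes on this scale understate those of low genes. P-values were adjusted by Benjamini and Hochberg within each contrast, with a threshold of 0.05. The script was tested on simulated data. No 2 libraries of a group were near-identical: over 55 pairs, chi-square divided by its degrees of freedom was at least 3.01. The count test on the recovered reads called 19 genes with edgeR 4.0.16 and 54 with DESeq2 1.42.0. Other alternatives were the pseudocount, the filter, the scaling, library weights, the libraries in the fit, a replicate block and leaving out each library.

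Named genes were Irs1, Irs2 and 3 marker genes (Nxpe4, Cd200 and Ssbp2), the called genes with a mean of at least 50 in 1 of the 4 groups, the member of each list with the smallest p or its called members, and a panel of cardiac genes. Efhd1, Dbp, Gab1, Inppl1 and Bst2 lie outside this rule and were named after their values were seen. Some items are not reported here. The markers, lists and tests were chosen with earlier results of these data known.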

Additional observations from a re-analysis of the deposited data

Results flagged for a closer look

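The response to TAC differed between IRS1KO and WT, by the limma test of the difference itself, for 15 genes. The log2 differences were 1.68 for Nxpe4, 0.95 for Epb41l3, 0.92 for Mgp, 0.67 for Ssbp2 and 0.57 for Snap29. On the negative side they were -2.36 for Clec7a, -1.62 for Ephb1, -1.46 for Nr1d1, -1.20 for Efhd1, -1.13 for Plekha7, -1.0 for Cd86, -0.92 for Csf1, -0.89 for Egfl7, -0.86 for Cd200 and -0.77 for Ets2.

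In 5 of 72 groups tested for a stray library, over 18 genes, 1 library lay far from the others by Dixon's test at the 95% level, which chance passes in about 1 in 20 groups. Cd200 was at 619.519 in IRS1KO TAC replicate 5, and the mean of the group without it was 388.63. Irs1 was at 80.2896 in the same library, against a mean of 16.81 in the rest of the group. Nr1d1 was at 936.262 in WT sham replicate 1, where the other libraries averaged 622.62. Snap29 was at 239.966 in WT TAC replicate 2, below a mean of 317.98 in the others. Irs2 was at 564.391 in WT sham replicate 2, against 147.6 in the others.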

How the results depend on the processing

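The count of 15 genes (5 higher, 10 lower) became 7 (4 and 3) with the same total per library, 192 (117 and 75) with library weights and 54 (25 and 29) with DESeq2. Only the 4 groups gave 10 (2 and 8) and quantile normalization 10 (4 and 6), and the other alternatives gave 12 to 21. Leaving out 1 library gave 2 to 53 genes, 2 to 29 higher and 0 to 24 lower. All 15 were among those called with library weights and with DESeq2, 14 with edgeR and 5 with the same total. The replicate block gave 17 genes (6 and 11), 12 of them among the 15, without Csf1, Epb41l3 and Ephb1. The labels do not say what the replicate numbers mark. The correlations of deviations between same-numbered libraries ran from -0.46 to 0.209 over 33 pairs, with a median of 0.085 and 14 over 0.1. No pairs of different numbers are given beside them, so they cannot decide whether equal numbers mark a shared day or batch. The difference for Irs1 turned to -0.28 with library weights, and from -0.58 to 1.05 with a library left out. That of Irs2 turned to 0.15 with edgeR and 0.18 with DESeq2. The macrophage median turned to 0.104 with library weights and ran from -0.453 to 0.117 with a library left out. The cause of these changes was not tested. With a median SE of 0.186, the smallest difference called was 0.57.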

Other observations

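Some lists that the report does not describe also held no called gene. Of 10 glucocorticoid-responsive genes, 7 had a positive difference, with a median of 0.23 that ran from 0.127 to 0.411 with a library left out, where the median change with TAC was -0.11 in WT, 0.13 in IRS1KO and -0.67 in IRS2KO hearts. Ddit4, a stress-induced inhibitor of mTOR signalling, had the smallest p in that list, at a log2 difference of 1.145 (limma, adjusted p = 0.396). Of 12 p53 targets, 9 had a positive difference, with a median of 0.16 (0.098 without IRS1KO TAC replicate 2), and of 12 resting fibroblast markers 9 had a negative one, with a median of -0.16. The 14 antioxidant genes had a median of -0.05, which ran from -0.098 to -0.016 with a library left out.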
